A study of Bos taurus with 43 samples.

Results

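Olfactory receptors were represented on a bovine single-colour oligonucleotide array by 264 of its 21475 gene probes, taken as every non-control probe whose description on the array names an olfactory receptor. The 264 probes carried 264 different gene names and were printed as 528 spots. Of them, 260 were described by a receptor family number, and these covered 16 families. In the RefSeq annotation of cattle, which was used for names only, 207 of the 264 were found by gene ID or accession, 195 as protein-coding genes and 11 as pseudogenes. A probe described as an odorant receptor, in place of an olfactory receptor, fell outside the rule and was not counted.

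The arrays held total RNA of the biceps brachii, a muscle of the front limb, from 43 male cattle with 1 animal per array. The positive animals (n = 4; S21, S54, S56 and S57) were commercial beef cattle suspected of corticosteroid treatment by the labels, a status that rests on thymus histology and dexamethasone residues in urine. The unknown animals (n = 21) were commercial beef cattle from the same slaughterhouse sampling whose treatment was not known, and these 25 animals were 12 to 24 months old and mostly Charolais, Limousine or their cross. The cross-breed controls (n = 5; K) were untreated Charolais and Limousine crosses 18 months old, and the Holstein controls (n = 13; C) were untreated Holstein cattle of 13 to 18 months, both from earlier controlled experiments. What the commercial animals had received, at which dose and for how long, was not recorded, which limits the positive group as a model of treatment. The control groups also differed from each other in breed and age, and the commercial animals spanned a wider range of ages than either. The breed of each commercial animal was not given.

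Olfactory receptors are G protein-coupled receptors of the sensory neurons of the nose, where a mature neuron expresses a single receptor gene. On binding an odorant, the receptor acts through the olfactory G protein on adenylate cyclase 3 (ADCY3), and cyclic AMP opens a cation channel built of CNGA2, CNGA4 and CNGB1, followed by the chloride channel ANO2. They form the largest gene family of mammals and sit in genomic clusters, and a few have been described outside the nose, in sperm, prostate and regenerating muscle. Whole muscle is not a tissue in which most of them are known to be expressed.

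The tissue label was borne out by the muscle markers, since all 13 probes of the skeletal muscle list were well above background on all 43 arrays, with myoglobin (MB) at a median log2 signal of 18.25. A probe is called well above background here where the scanner software gave that call to all of its usable spots. Most receptor probes did not reach this level on most arrays. None of the 264 was well above background on all 43 arrays, against 36.1% of all gene probes, and that count rests on the array of animal 79, without which 8 receptor probes were on every array. Only 26 receptor probes (9.85%) reached it on at least 22 of the 43 arrays, against 66.7% of the 21211 other gene probes. Another 65 reached it on 1 to 4 arrays and 8 on none. A receptor probe was well above background on a median of 9 arrays, and a gene probe of any kind on a median of 42.

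**Figure D1:**
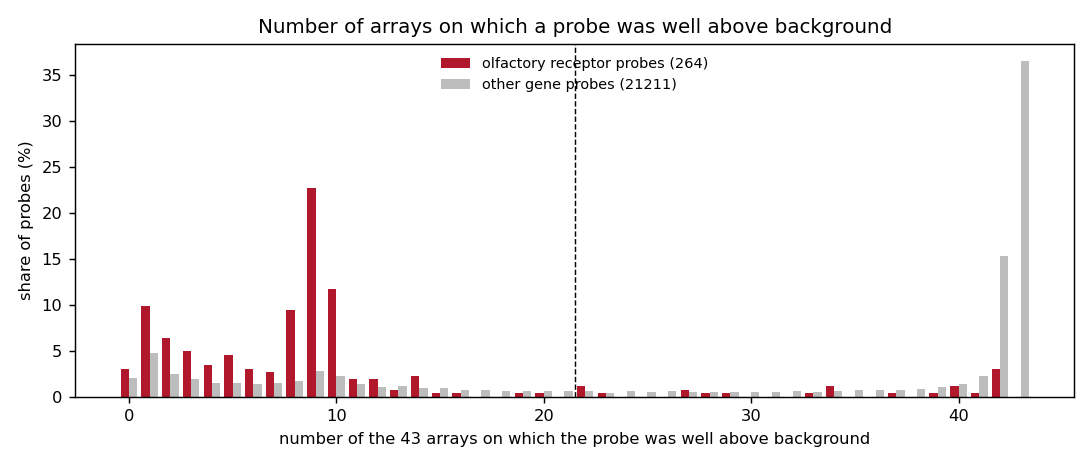
Share of probes (y axis, %) by the number of the 43 arrays on which they were well above background (x axis), for 264 olfactory receptor probes (red) and 21211 other gene probes (grey). The dashed line separates probes on at least 22 arrays; 26 receptor probes lie to its right, and 60 receptor probes stand in the peak at 9 arrays.

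The share of receptor probes well above background differed between arrays far more than the share of the other probes. In the 4 positive animals it was 58.0% in S21, 56.4% in S54, 69.3% in S56 and 82.6% in S57. In the 5 cross-breed controls it was 7.95% in K7, 11% in K8, 7.95% in K10, 6.44% in K11 and 15.2% in K12. The 13 Holstein controls had 5.30% to 14.4% (median 8.33%). The lowest positive animal was thus above every control of both kinds. Shares of the other gene probes moved with those of the receptors. They were 71.5% in S21, 74.8% in S54, 79.6% in S56 and 87.6% in S57, against 61.6% to 72.1% in cross-breed controls and 61.0% to 72.1% in Holstein controls. S21 lay within the range of the controls, and S54, S56 and S57 lay above all 18 of them. The part of this wider shift in the receptor shares was not tested.

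The 21 unknown animals spanned the whole scale, from 0.00% to 96.2% with a median of 14.0%. Animal 50 had the highest share of all arrays, 96.2%, which was 254 of the 264 probes. It was followed by animal 78 with 72.3%, animal 81 with 67.8%, animal 60 with 63.6%, animal 61 with 44.7% and animal 266 with 34.1%. The same 6 animals had the highest shares of other gene probes among the unknown animals, 96.8% in animal 50, 81.5% in 78, 79.7% in 81, 80.1% in 60, 72.3% in 61 and 76.9% in 266, each above all 18 controls. On the array of animal 79 no receptor probe was well above background, and only 37.1% of the other probes were. The remaining unknown animals had 5.68% to 19.3% and overlapped both control groups.

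**Figure D2:**
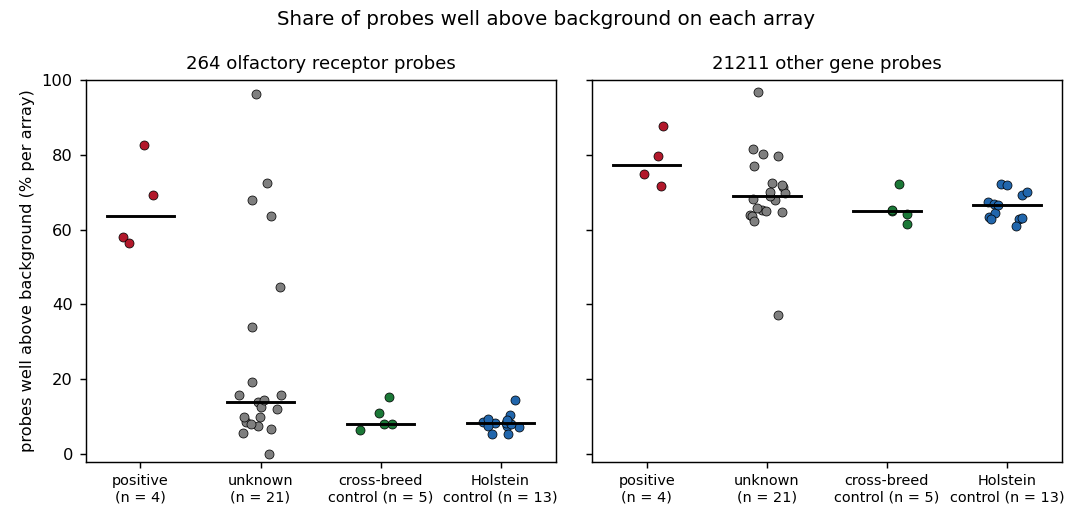
Share of probes well above background on each array (y axis, %) for the 264 olfactory receptor probes (left) and the 21211 other gene probes (right), by group; points are arrays and bars are group medians. Receptor medians were 63.6% in positive animals, 14.0% in unknown animals, 7.95% in cross-breed controls and 8.33% in Holstein controls.

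Slides, which hold up to 4 arrays each, ran alongside this pattern. All 4 positive animals lay on 2 slides scanned on the same day, S56 and S57 with unknown animals 50 and 81 on slide 8, and S21 and S54 with unknown animals 78 and 79 on slide 9. Except for animal 79, every array on these 2 slides had a receptor share of at least 56.4%. Outside them, the highest shares were those of animals 60 and 61, which shared slide 11 with animal 52 at 7.58%. Whether slide, hybridization or scan had a part in the receptor shares was not tested against the controls. Positive animals and cross-breed controls shared neither slide, scan day nor scanner, so group and batch cannot be told apart there.

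**Figure D3:**
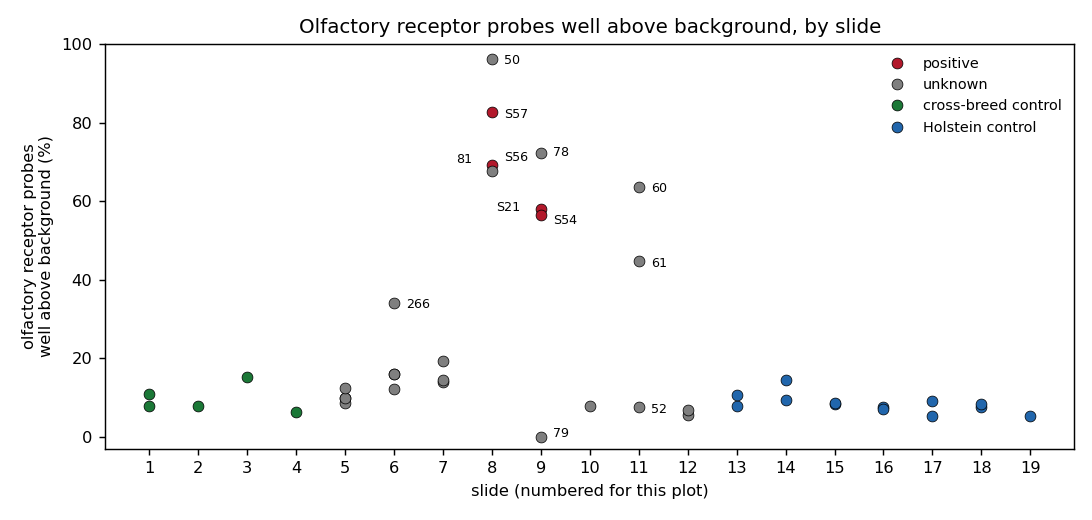
Share of the 264 olfactory receptor probes well above background (y axis, %) on each of the 43 arrays, by slide (x axis, 19 slides numbered for the plot), coloured by group. Slides 8 and 9 hold all 4 positive animals; on these, 7 of 8 arrays lie between 56.4% and 96.2%, and animal 79 lies at 0.00%.

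Negative-control spots match no bovine transcript. Between 0.00% and 3.27% of the 153 such spots were well above background on any array, and on the array of animal 50 it was 0.00%. Their median background-subtracted intensity was nonetheless 22.8 units in animal 50, the highest of the 25 commercial animals, followed by 11.7 in animal 60. It was 4.55 to 8.06 units in the positive animals, 2.73 to 47.5 in cross-breed controls and 0.909 to 7.77 in Holstein controls. Before normalization, the median receptor spot exceeded the median negative-control spot by 25.1 to 47.8 intensity units in the positive animals and by 146.4 units in animal 50. Cross-breed controls had differences of 3.91 to 15.3 units, and Holstein controls of 1.82 to 4.35 units. The raw gap was therefore larger in every positive animal than in any control. Animals 60, 78, 61 and 81 had gaps of 49.9, 44.8, 27.2 and 25.95 units, animal 266 had 14.4 units and animal 79 had 17.1 units.

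Each receptor has more than 1 spot on an array, and the agreement of its spots shows the technical error. Spearman's rho across the receptor probes between their first and second spot lay between 0.91 and 0.96 on positive arrays, between 0.43 and 0.70 on cross-breed arrays and between 0.35 and 0.59 on Holstein arrays. It was 0.98 in animal 50 and -0.02 in animal 79. These are descriptions across probes of 1 array, which share that array's background. Where the receptors lay near background, the order of their spots was thus repeated far less well.

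The receptor profile, as rho across the 264 normalized signals, was alike among the positive animals, with 0.96 to 0.97 over their 6 pairs. On slides 8 and 9 the unknown animals 50, 78 and 81 correlated with the positive animals at 0.93 to 0.98, and animal 79 at 0.64 to 0.71. Positive animals against cross-breed controls gave -0.18 to 0.42 over 20 pairs, and against Holstein controls -0.18 to 0.39 over 52 pairs. Cross-breed and Holstein controls correlated with each other at 0.30 to 0.65 over 65 pairs. The points share probes, and on most arrays most of them lie at the floor, so no test was made of these values.

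The 60 receptor probes that were well above background on exactly 9 arrays show the same set of animals from the side of the probes. For 48 of the 60, those arrays were S21, S54, S56, S57, 50, 60, 61, 78 and 81. For another 8, animal 266 stood in place of animal 61.

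On the normalized scale, the median log2 signal of the 264 receptor probes lay between 3.97 and 4.39 for positive animals, between 2.45 and 2.65 for cross-breed controls and between 2.38 and 2.72 for Holstein controls. The medians of the positive animals lay above those of all controls. Unknown animals covered 2.23 to 4.31 (median 2.68), where animals 78, 81, 60, 61 and 50 were at 4.31, 4.24, 4.17, 4.14 and 3.77. The median of the other probes stayed between 6.13 and 6.98 on all 43 arrays, as the normalization enforces. By rank, the median receptor signal stood at percentiles 27.1 to 30.3 of all gene probes on positive arrays and at percentiles 12.7 to 15.4 on cross-breed arrays.

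These low levels are in part not measurements. For a spot that does not differ from background, the scanner software writes a stand-in value in place of the signal, and such values have no order among themselves. Stand-ins made up 2.27% to 7.95% of the receptor probes on positive arrays, 33.0% to 64.0% on cross-breed arrays and 51.1% to 67.8% on Holstein arrays. They made up 79.2% in animal 79 and none in animal 50. A difference against a control group is therefore given below as a lower bound where no array of that group measured the probe. Signals of different probes also depend on the probe, so the order of receptors by brightness is not an order of RNA amounts.

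A small set of receptors was bright in every group. OR5A1, described in humans as a receptor for the floral odorant beta-ionone, was the brightest by median, at a log2 signal of 8.01, the 63.2 percentile of all gene probes. It was well above background on 42 arrays, all but that of animal 79. Its log2 signal was 8.29 in S21, 8.13 in S54, 7.99 in S56 and 7.72 in S57. In the cross-breed controls it was 9.47, 9.63, 8.16, 7.83 and 9.19. Holstein controls ranged from 6.89 to 10.67 with a median of 8.02, and unknown animals from 6.68 to 10.33 with a median of 7.47. All 4 groups overlapped, and the highest values belonged to Holstein animals C46 and C45 (9.72) and to unknown animals 269 and 36 (10.31).

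Besides OR5A1, 7 receptor probes were well above background on all arrays but that of animal 79. They were OR2AE1 with a median log2 signal of 6.46, OR3A10 (described on the array as OR3A3) with 6.38, OR2A25 with 6.26, OR6V1 with 5.88, LOC528254 with 5.73, OR4B1H (described as OR4B1) with 5.59 and OR5J15P (described as OR5J2) with 5.52. RefSeq lists OR5J15P as a pseudogene, and LOC528254, described as similar to olfactory receptor 94, was not matched. OR51G2 followed on 41 arrays (median 5.83), OR2AG2 on 40 (5.81), OR6C264 on 40 (described as OR6C2; 5.60), OR13C11 on 40 (described as OR2S2; 5.22), OR51D1 on 39 (described as OR51E1; 6.15) and OR10P1 on 37 (5.98). OR51D1 was not well above background in K7 and K11, and OR10P1 missed the level in 4 unknown animals and 2 Holstein controls. The probe described as OR51E2, a receptor for short-chain fatty acids known from human prostate, reached the level on 22 arrays, of which 1 was a Holstein control.

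**Figure D4:**
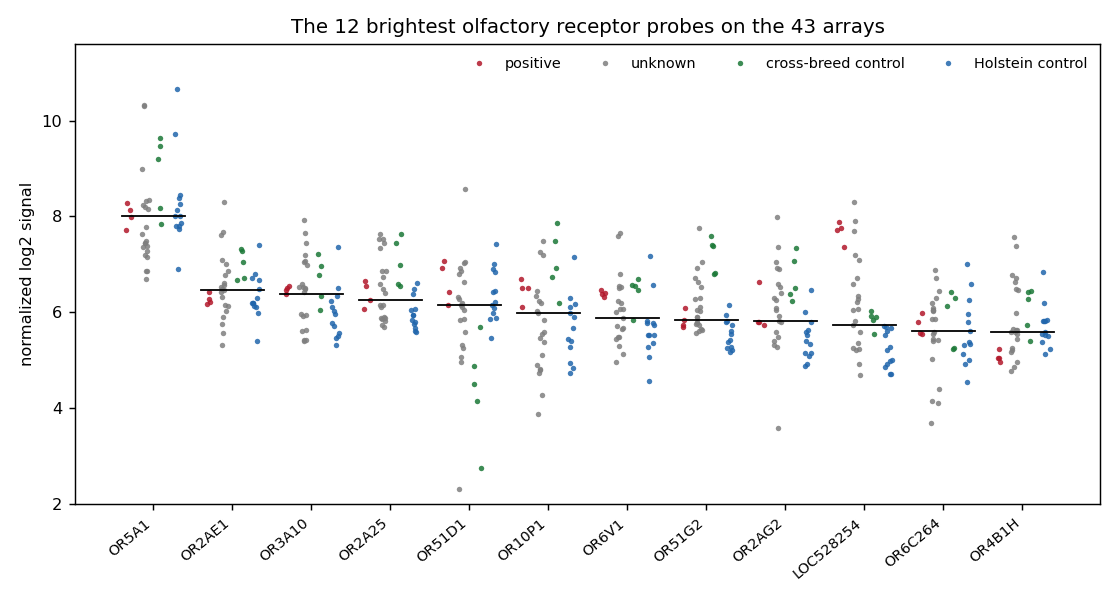
Normalized log2 signal (y axis) of the 12 receptor probes with the highest median among those well above background on at least 22 arrays; points are arrays by group, and bars are medians over 43 arrays. OR5A1 has a median of 8.01 and overlaps between all groups; OR51D1 is at 2.73 to 5.68 in the cross-breed controls.

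Bright receptors came from several families, taken from the descriptions on the array, so that OR13C11, described as OR2S2, counts in family 2. Family 2 held 5 of the 26 among 44 probes, families 1, 5, 6, 10 and 51 held 3 each among 22, 26, 18, 24 and 15, and families 3, 4, 7 and 9 held 1 each. Families 8 and 52, with 19 and 25 probes, held none. Of the 19 bright receptors found in the RefSeq gene order (assembly ARS-UCD2.0), 9 had a gene named as an olfactory receptor next on both sides and 3 had none so named. Of the 188 dimmer receptors found there, 124 had one on both sides and 6 had none. A neighbour counted if it had an olfactory receptor symbol or was itself a receptor of the array. Other neighbours with only a LOC number did not count, though they could be receptors. OR2AE1 was among the 3 with no named receptor as the next gene, which does not place it outside a cluster.

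The comparison of positive animals with cross-breed controls asks which transcripts differ between animals suspected of corticosteroid treatment and untreated beef crosses, where the breed of each positive animal is not given. It gave 150 receptor probes called higher and 34 called lower, where a call needs an adjusted p under 0.05 and a change of at least 2-fold (limma, Benjamini-Hochberg adjustment over all 21475 probes). Among all probes, 18% were called higher and 17.3% lower, so that 56.8% of the receptor probes were called higher against a background of 18%, and 12.9% lower against 17.3%. The median log2 change was 1.25 over the receptor probes and -0.03 over all probes. The 2 groups did not overlap for 141 of the 150 probes called higher (94%), close to the 92.3% among the 3876 probes of all kinds called higher.

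Of the 150, 121 were well above background in all 4 positive animals, and 140 were well above background in none of the cross-breed controls. The median background SD was 11.2 to 18.7 units on cross-breed arrays and 8.21 to 8.81 on positive arrays. On Holstein arrays it was 7.87 to 8.76 units. The part of the background SD in these counts was not tested. Calls came from most families. In family 2 they were 32 of 44 probes, in family 5 18 of 26, in family 51 10 of 15, in family 52 14 of 25 and in family 6 7 of 18, whereas in family 3 none of 4 was called higher and 2 were called lower. Of the 34 probes called lower, 21 were well above background on no array of either group, and their order rests on values at the floor.

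The largest change that was well above background in every positive animal was that of OR1E2. Its log2 signal was 6.98 in S21, 6.93 in S54, 7.22 in S56 and 6.37 in S57. In the cross-breed controls, where it was never well above background, it was 2.56, 3.18, 2.18, 3.08 and 3.499. OR1E2 was at least 6.49-fold higher in the positive animals (mean of the positive animals against, for each control array, the higher of its lowest signal well above background and its own value of the probe; fitted log2 change 3.97, standard error 0.28, limma adjusted p = 2.7e-06). It was well above background in none of the 13 Holstein controls, and in 6 of 21 unknown animals, of which 81 was at 6.97, 78 at 6.84, 60 at 6.61, 61 at 6.54 and 50 at 6.29.

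OR4D32, described on the array as OR4D10, was at 6.48, 6.58, 6.66 and 5.91 in S21, S54, S56 and S57 and at 2.08 to 2.84 in the cross-breed controls. It was at least 4.90-fold higher. The probe described as OR1L6 was at 6.99, 6.70, 6.90 and 6.31 against 2.33 to 3.99, at least 5.46-fold higher. OR2W3 was at 6.51, 6.18, 6.71 and 5.76 against 2.16 to 3.11, at least 4.51-fold higher. For all 3 the groups were far apart, no control measured the probe, and the largest limma adjusted p was 1.1e-05.

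Some of the receptors that were bright in every group changed less or the other way. Of the 12 brightest, 2 were called higher and 1 was called lower, beside 18% and 17.3% of all probes. A lower mean in the positive animals was found for 10 of the 12, where the median log2 change of all probes was -0.03. Holstein controls, against the same cross-breed controls, had a lower mean for 11 of the 12. Against unknown animals, the positive animals had a lower mean for 5 of the 12. No test was made of these counts. LOC528254 was at 7.87, 7.36, 7.72 and 7.76 in the positive animals and at 5.84, 5.55, 5.89, 6.02 and 5.93 in the cross-breed controls, 3.57-fold higher with no overlap (limma adjusted p = 9.3e-06). OR51D1 was at 6.93, 6.15, 6.42 and 7.06 against 4.88, 4.49, 5.68, 2.73 and 4.13, 4.78-fold higher (limma adjusted p = 0.0029). Only 3 of the 5 cross-breed controls measured it, and leaving out 1 animal gave log2 changes of 1.84 to 2.58.

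OR51G2 went the other way, with 6.08, 5.83, 5.73 and 5.69 in the positive animals against 7.39, 7.58, 6.80, 6.81 and 7.37. Its log2 change was -1.36, with a standard error of 0.20 (limma adjusted p = 2.8e-04). OR13C11, described as OR2S2, was at 4.68, 4.37, 4.88 and 4.84 against 6.36, 6.25, 5.52, 5.89 and 5.95, and OR5J15P at 5.03, 5.33, 5.18 and 5.19 against 6.82, 6.64, 5.52, 5.62 and 6.55. These fell by 1.30 and 1.05 (limma adjusted p = 3.6e-04 and 0.0095). The change of OR5J15P was under 2-fold, and its call lost, without S21 (-0.998), K7 (-0.90), K8 (-0.95) or K12 (-0.97). These 3 were the only probes called lower that were well above background in every cross-breed control, and in none of them did the groups overlap. OR5A1 had a log2 change of -0.82 (standard error 0.37, limma adjusted p = 0.078).

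With normexp background correction, which adds an offset of 50 before the logarithm, 3 of the 264 receptor probes were called higher and 0 lower in this comparison. Among all 21475 probes, 823 were called higher and 552 lower. The share of receptor probes called higher was then below that of all probes, and their median log2 change was 0.16. With scaling to the 75th percentile, 202 receptor probes were called higher and 3 lower, a split that differs from the 150 and 34 above. The split of all 21475 probes moved the same way, to 6029 higher and 1465 lower from 3876 and 3714.

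**Figure D5:**
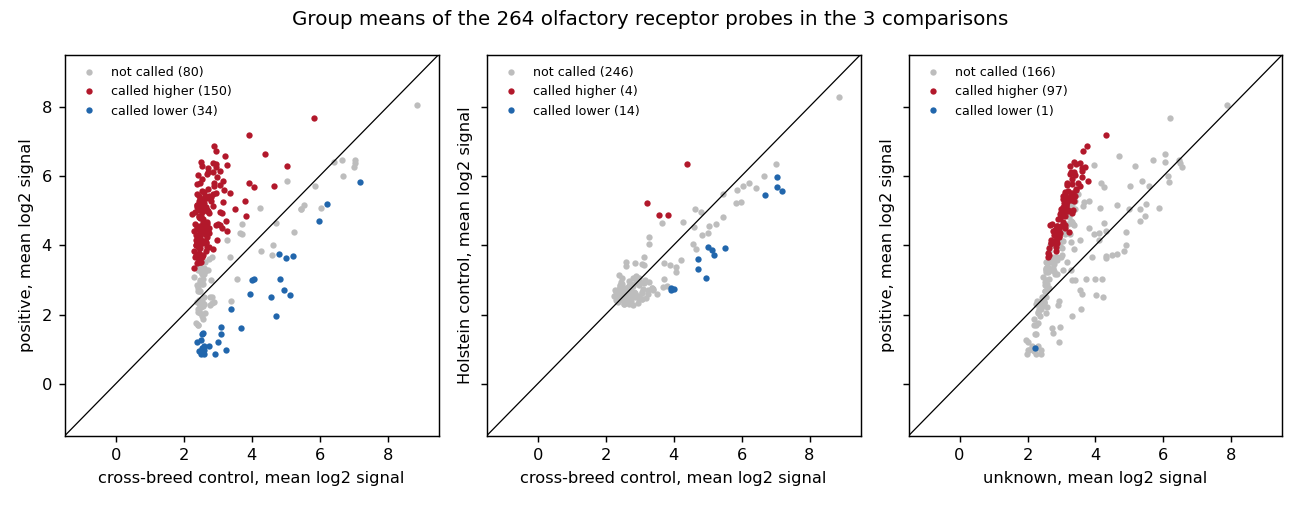
Mean normalized log2 signal of the 264 receptor probes in positive animals against cross-breed controls (left), Holstein against cross-breed controls (middle) and positive against unknown animals (right); each point is a probe, and the line marks equal means. Calls higher and lower were 150 and 34, 4 and 14, and 97 and 1; the cloud at a log2 signal of 2 to 3 in the controls lies at the floor.

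The comparison of Holstein with cross-breed controls shows how far the receptors differ between untreated animals of 2 origins; it uses the same cross-breed controls as the comparison above. It gave 4 receptor probes called higher in Holstein controls and 14 called lower. This is 1.52% and 5.3% of the receptor probes, against 8.5% and 8.15% of all probes. The median log2 change was 0.03 over the receptor probes and 0.04 over all probes. Most receptor probes lay at the floor in both groups, which limits the calls that could be made.

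Of the 4 probes called higher and the 14 called lower, 3 and 5 were among the 26 receptors bright on at least 22 arrays. OR51D1 was at 5.45 to 7.41 (median 6.21) in Holstein controls and at 2.73 to 5.68 in the cross-breed controls, 3.93-fold higher (log2 change 1.97, limma adjusted p = 3.3e-04), with some overlap. K7 and K11 did not measure it, and leaving out 1 cross-breed control gave log2 changes of 1.56 to 2.30. OR51G2 was at 5.16 to 6.15 (median 5.53) against 6.80 to 7.58, and fell by 1.63 without overlap (standard error 0.17, limma adjusted p = 1.1e-06). OR10P1, OR2AG2 and OR2A25 fell by 1.35, 1.25 and 1.06 (limma adjusted p = 0.0040, 4.0e-04 and 3.5e-04), each with overlap between the groups. The call of OR2A25 was lost without K7 (-0.91) or K8 (-0.96), where its change was under 2-fold.

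The other 3 probes called higher lie outside the rule for named genes and were chosen after their values were seen. The probe described as OR2Z1 was well above background in 12 of 13 Holstein controls and in none of the cross-breed controls, at least 2.11-fold higher (limma adjusted p = 6.9e-06). Those described as OR6B2 and OR5AU1 had log2 changes of 1.33 and 1.02 (limma adjusted p = 0.010 and 0.0046). Both were well above background in 1 of the 5 cross-breed controls, so that most values on that side lie at the floor. No slide, scan day or scanner was shared here either, so breed, origin and batch cannot be told apart. With 75th percentile scaling, 2 of the 264 receptor probes were called higher and 36 lower, beside 1312 and 2905 of all 21475 probes.

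The comparison of positive with unknown animals sets the suspected animals against commercial cattle of the same sampling, and it uses the same positive animals as the first comparison. It gave 97 receptor probes called higher, 36.7%, against 4.69% of all probes, and 1 called lower, 0.379%, against 1.78%. The median log2 change was 0.996 over the receptor probes and -0.05 over all probes. The groups overlapped for every called receptor probe, as they did for all but 4 of the 1007 probes of any kind called higher. The 97 calls lay at the edge of the threshold, with limma adjusted p from 0.046 to 0.050.

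OR1E2 was higher in the positive animals by 3.12 on the log2 scale (standard error 0.86), and the unknown animals ranged from 1.95 to 6.97. OR1L6, OR4D32 and OR2W3 were higher by 3.10, 3.05 and 3.03, with unknown animals at 1.89 to 6.89, 1.95 to 6.53 and 1.38 to 6.38. OR1E2 and OR1L6 were well above background in 6 of the 21 unknown animals and OR4D32 and OR2W3 in 5, so that most values on that side lie at the floor and these differences are of fitted values, not measured folds. All 4 had a limma adjusted p of 0.046. The probe called lower, OR7G49 (described as OR7G2; named after its value was seen), was well above background in no positive animal and in 1 unknown animal.

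No receptor probe was called when any of the 4 positive animals was left out, or when the array of animal 79 was left out. Within slides 8 and 9, the only ones that held both groups, no receptor probe was called in either direction, and 0% of all probes were (limma with slide as a block; 5 receptor probes had an unadjusted p under 0.05). The median log2 change of the receptor probes there was 0.35, and 0.13 without animal 79. OR1E2 had a log2 change of 0.15 there without animal 79 (limma adjusted p = 0.91). On the same slides the receptor shares of unknown animals 50, 78 and 81 were 96.2%, 72.3% and 67.8%, beside 56.4% to 82.6% in the positive animals.

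The rest of the odour pathway was read from a list of 20 genes of olfactory neurons and odour transduction, of which 16 were found on the array with 17 probes. Of these, 4 reached the well-above-background level on all 43 arrays, namely those of REEP1, an accessory protein of receptor transport, of RIC8B, an exchange factor of the olfactory G protein, and of the transcription factors LHX2 and EBF1. Another 10 reached the level on at least 22 arrays. REEP1 was the brightest with a median log2 signal of 10.48. The pore subunit CNGA2 reached the level on 7 arrays, the phosphodiesterase PDE1C on 6 and the chloride channel ANO2 on 9. CNGA2, PDE1C and ANO2 were well above background in none of the 18 controls. No probe was found under the name of OMP, the classical marker of mature olfactory neurons, or of the G protein subunit GNAL, and these were not analysed here.

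In positive animals against cross-breed controls, 5 of the 17 probes were called higher and 2 lower, beside 18% and 17.3% of all probes. LHX2 was higher by 5.02 on the log2 scale and ADCY3 by 1.56. ANO2, detected in all 4 positive animals and no control, was at least 1.73-fold higher, and CNGA2, detected in 3 of them, at least 1.08-fold higher. PDE1C was detected in 2 of them, and its mean did not exceed the lowest detectable signal of the controls, so no fold is given. In the same comparison ATF5 and 1 of the 2 RIC8B probes fell by 2.29 and 1.63. The other RIC8B probe had a change of -0.23, so the probes of this gene disagreed. In Holstein against cross-breed controls, 3 were called higher and 3 lower, beside 8.5% and 8.15% of all probes. The higher ones were LHX2 (4.94), ADCY3 (2.03) and the channel subunit CNGB1 (1.45). ATF5 (-2.67), 1 RIC8B probe (-1.73) and RTP2 (-1.21) were lower. CNGB1 was well above background in all 13 Holstein controls, 2 of the 5 cross-breed controls and 2 of the 4 positive animals. CNGA2, ANO2 and PDE1C were well above background in no animal of either group. In positive against unknown animals only ANO2 (1.55) and PDE1C (1.11) were called, beside 4.69% of all probes called higher, and they were well above background in 5 and 4 of the 21 unknown animals. Their limma adjusted p were 0.046 and 0.047, and neither was called without animal 79, without any 1 positive animal or within slides 8 and 9, where no probe of the array was called higher. The summed log2 signal of the list overlapped between all groups, at 11.96 to 12.30 for positive animals, 11.96 to 12.19 for cross-breed controls, 12.11 to 12.92 for Holstein controls and 11.66 to 12.77 for unknown animals. In whole muscle, more cells of a type and more RNA per cell cannot be told apart.

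A set of 11 probes for taste, trace amine and vomeronasal receptors, which are likewise chemosensory and not known as muscle genes, were read beside the olfactory receptors. Of these, 2 to 8 were well above background in the positive animals, 10 in animal 50, 7 in animal 78, 6 in animal 81, 4 in animal 60 and 3 in animal 61, against 1 on every control array. That probe was LOC511517, described as taste receptor type 1 member 3, on 39 arrays. In positive animals against cross-breed controls, 4 of the 11 were called higher and 3 lower, beside 18% and 17.3% of all probes. The 4 higher ones were TAAR6, TAAR8, TAAR9 and LOC646706, of which TAAR9 was at least 2.39-fold and LOC646706 at least 1.64-fold higher. Of the 3 lower ones, TAAR5 and LOC523315 were well above background on no array of either group and rest on values at the floor. Summed log2 signals of the 11 were 7.04 to 7.41 for positive animals and 6.52 to 6.95 for cross-breed controls, without overlap, and Holstein controls at 6.72 to 7.25 overlapped both.

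Markers of the other cells of a muscle were also read beside the receptors. In positive animals against cross-breed controls, 4 of 6 fibroblast probes were called lower and 1 higher, 2 of 4 adipocyte probes were called higher, and 6 of 13 skeletal muscle probes were called lower and 2 higher, beside 18% higher and 17.3% lower among all probes. The lower muscle probes were 2 of MYH1, 1 of TTN, and those of TNNT3, TNNC2 and MYLPF, which the array describes as fast. ACTA1 was called higher, as was TNNT1, which the array describes as slow. Summed signals of the skeletal muscle list overlapped, at 20.08 to 20.42 for positive animals and 19.84 to 20.68 for cross-breed controls. Schwann cell, endothelial and red blood cell probes had 1 call higher each, of 3 probes each, and 1 of 3 red blood cell probes and 1 of 7 leukocyte probes were called lower. Those 2 lower calls, ALAS2 and a LYZ probe, and 1 of the 4 lower fibroblast calls, a COL1A2 probe, were well above background on no array of either group and rest on values at the floor. The summed log2 signal of the Schwann cell list was 12.70 to 13.04 for positive animals, against 10.71 to 11.39 for cross-breed controls and 10.05 to 11.82 for Holstein controls, without overlap. The summed adipocyte signal was 9.46 to 10.48 for positive animals, 5.83 to 7.16 for cross-breed controls and 7.50 to 11.46 for Holstein controls. The endothelial list was at 12.05 to 13.14 for positive animals and at 11.05 to 11.99 for cross-breed controls. The markers with the highest median signal in their lists were S100B (Schwann cell), FABP4 (adipocyte), VWF (endothelium), DCN (fibroblast), PTPRC (leukocyte) and AHSP (red blood cell). Such an order by brightness is not one of RNA amounts. In Holstein against cross-breed controls, 3 of 4 adipocyte probes were called higher and 1, LEP, lower at the floor. There 3 of 6 fibroblast probes were called higher, and 2 of 13 skeletal muscle probes each way, beside 8.5% higher and 8.15% lower among all probes. In positive against unknown animals the only call in these lists was COL3A1, lower (limma adjusted p = 0.046), beside 1.78% of all probes. The part of these cells in the receptor signals was not tested.

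The methods leave out probes with intensities under 4 on at least 30 of the 43 arrays, without stating the scale of the limit. Read as a log2 signal, the limit kept 51 of the 264 receptor probes and 16354 of all 21475 probes. Among the 51, 16 were called higher (31.4%) and 11 lower (21.6%) in positive animals against cross-breed controls, where 14.4% and 13.8% of the 16354 were called, and the median log2 change of the 51 was -0.20. Read as a linear intensity of the values normalized here, a reading added after seeing the data, the limit removed no probe. Neither reading kept the number of transcripts that the study gives, so its filter was not rebuilt. Which probes the study's own filter removed was not settled here.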

How the data were processed

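The authors deposited Agilent Feature Extraction files, 1 per array, with a processed intensity, a mean and a local background intensity, a background SD and quality flags for each spot, and a table of normalized intensity values of the same arrays. The processed intensities had been corrected for background and spatial trend by the scanner software, not between arrays. They were log2-transformed and normalized by cyclic loess over all 43 arrays, spots marked as outliers were left out, and spots of a probe were averaged. Group comparisons used limma 3.58.1 in R 4.3.3 on all 21475 gene probes of the 2 groups compared, with Benjamini-Hochberg adjustment, and the fitting code was tested on simulated data. A lower bound on a fold sets the mean of the brighter group against, for each array of the dimmer group, the higher of its lowest signal well above background and its own value of the probe. The number of arrays limits the precision, and each array is 1 animal.

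The 12 receptors of highest median among those on at least 22 arrays were named, and in each comparison the 4 largest called changes in each direction among probes detected that way in all animals of the brighter group, beside the called or always detected genes of the transduction list. Members and lists were chosen with earlier results of these data known, so no test was made over a list. Names came from the array's descriptions and from RefSeq. Alternatives covered scaling, background correction, filters, blocks for slide and scan day, the deposited table and leaving out animals. Leaving out animal 79, and leaving out slides 8 and 9, were added after seeing the data. Probe sequences were not used here.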

Additional observations from a re-analysis of the deposited data

Results flagged for a closer look

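Among 44 sets of values from positive animals or from cross-breed controls (18 named receptor probes, and the shares and medians of the receptor probes), 2 held a sample far from the others of its group, and chance gives about 1 in 20 such sets. OR2AG2 was at a log2 signal of 6.62 in S21, against 5.73 to 5.80 in the other positive animals. OR6V1 was at 5.83 in K10, against 6.45 to 6.68 in the other cross-breed controls. Neither probe was called in the comparison of these groups.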

How the results depend on the processing

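In positive animals against cross-breed controls, the calls higher and lower were 150 and 34; they were 3 and 0 with normexp background correction, 16 and 11 with the filter at a log2 signal of 4, 202 and 3 with 75th percentile scaling, and 122 and 6 with the filter on probes well above background. Among all 21475 probes, the calls were 3876 and 3714, with 823 and 552 under normexp and 6029 and 1465 under 75th percentile scaling. The filter at a log2 signal of 4 gave 2347 and 2251 of 16354 probes. The filter on probes well above background gave 3250 and 1888 of 16402. Both filters test fewer probes. The second keeps a probe well above background on at least 4 arrays of the pair here, which left 150 receptor probes. In Holstein against cross-breed controls the limit was at least 5 arrays, which left 26. Since 140 of the 150 higher calls without a filter were well above background in no cross-breed control, such probes passed only through the positive animals, and the split of 122 and 6 is set largely by the filter. The same limit on a linear scale, added after seeing the data, left out no probe and changed no call. Leaving out animals gave 143 to 151 higher and 29 to 37 lower. Slide as a random block gave 150 and 31, and scan day as a random block 149 and 31. In Holstein against cross-breed controls (4 and 14), 75th percentile scaling gave 2 and 36 and normexp 0 and 0 (62 at an unadjusted p under 0.05 in limma). The filter on probes well above background gave 4 and 6. Among all probes these settings gave 1312 and 2905, 785 and 563, and 1730 and 1334 of 15090. For the receptor probes, leaving out animals gave 3 to 6 and 11 to 16. In positive against unknown animals (97 and 1), the calls were 0 and 0 with 75th percentile scaling, quantile normalization, normexp, the series matrix values, the filter at a log2 signal of 4, scan day as a random block, slide as a fixed block with or without animal 79, without animal 79 alone, and without each positive animal in turn. They were 0 and 7 with pairwise cyclic loess, 102 and 0 with the filter on probes well above background and 131 and 15 with all 43 arrays in 1 fit. Among all probes the same settings gave 46 and 447, 1049 and 301 of 18740, and 2091 and 1424. In the settings with no receptor call, at most 1 probe of the array was called higher and at most 31 lower. The log2 change of OR5A1 in that comparison turned from 0.16 to -0.19 with pairwise cyclic loess. At an unadjusted p under 0.05, limma gave 156 receptor probes with 75th percentile scaling, 155 with quantile normalization, 55 with pairwise cyclic loess, 1 with normexp, 168 with the series matrix values, 18 with the filter at a log2 signal of 4, 30 with scan day as a random block, 5 within slides and 178 without animal 79. The cause of these differences was not tested. The median of all probes moved by over 0.1 with 75th percentile scaling (to 0.30, -0.23 and 0.19 in the 3 comparisons) and with pairwise cyclic loess (to -0.23 in the first and -0.16 in the third).

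The median receptor share became 87.9% in positive animals, 23.5% in cross-breed controls and 19.3% in Holstein controls with the software's weaker call of a positive and significant signal, and 93.6%, 40.2% and 29.9% with the 95th percentile of the negative controls as the limit. With any spot in place of all spots it was 14.0% and 13.3% in the cross-breed and Holstein controls. Leaving out animals gave 58.0% to 69.3% in positive animals and 7.95% to 9.47% in cross-breed controls. The number of receptor probes on at least 22 arrays rose from 26 to 60 and 87 under the 2 weaker limits, and was 23 on the same share of arrays without slides 8 and 9. The positive median stayed above both control medians under all of these. No paired analysis was possible because the groups share only the animal number 21, which names different animals. Depth, here the signal over background, limits all statements on receptors at the floor.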
